A study of Arabidopsis thaliana with 3 samples.

Results

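Uridylation, the addition of uridines to an RNA 3′ end, is known above all as a mark of mRNAs whose poly(A) tail has already been shortened to an oligo(A) tail. In Arabidopsis the terminal uridylyltransferase URT1 adds most of these Us, and HESO1 is its relative known for uridylating small RNAs. Deadenylases shorten the tail, poly(A)-binding proteins cover the As that remain, and the decapping machinery acts on mRNAs with little tail left. The uridylated tails described here carry more As than the oligo(A) class in which uridylation is usually studied.

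The members are TAIL-seq reads with 26 or more As in the poly(A) stretch and only Us added after it. TAIL-seq sequences the 3′ end of an mRNA through an adapter ligated to it, so the added nucleotides are read first and the As after them. The number of As is a base call over a run of one base, which is less certain for long runs, and a check of the called lengths was not made here. The members were chosen by these measured values: of 442916 reads in all, 184221 had 26 or more As, and 3221 of those were uridylated. The same length class held 180035 unmodified tails and 965 tails that ended in added G or C. The reads came from 3 biological replicates of flowers of wild-type Col-0 Arabidopsis, a single untreated group with no mutant and no control. Replicate 1 was read on one sequencing run and replicates 2 and 3 on another, so that run and replicate cannot be told apart. The plants' age was not given in the sources used here.

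Replicate 1 held 222681 reads, replicate 2 held 113458 and replicate 3 held 106777. Tails of 26 or more As, called long below, made up 48.9%, 34.5% and 33.8% of them. The floral regulators AP1 and PI, which mark the flower, had 28 to 149 and 28 to 101 reads per replicate. Others of this kind had few: AP3 had 33, 7 and 10 reads in replicates 1 to 3, and SEP3 10, 4 and 4. AG had 7 reads in replicate 1, 1 in replicate 2 and 0 in replicate 3. The mRNAs of 22 genes that the study also followed by 3′RACE-seq, a targeted assay of single mRNAs, gave 2.28% of long tails in replicate 1 but 32.9% in replicate 2 and 22.5% in replicate 3 (AT2G45160, a further locus of that assay, is counted with them). Where these extra reads came from could not be settled from the files, and several of the values below are given with and without them.

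The shortest members show what was counted. Each sequence below is a tail of 26 As in RNA letters, 5′ to 3′, as the reads give it, with the added Us in capitals.
1 added U: aaaaaaaaaaaaaaaaaaaaaaaaaaU
2 added Us: aaaaaaaaaaaaaaaaaaaaaaaaaaUU
3 added Us: aaaaaaaaaaaaaaaaaaaaaaaaaaUUU
4 added Us: aaaaaaaaaaaaaaaaaaaaaaaaaaUUUU
The form with 1 U was read 250 times, the form with 2 Us 51 times, the form with 3 Us 3 times and the form with 4 Us 2 times. The 3′ end of each tail is placed by the adapter ligated to it, which begins ctgacnnnnnnnnnnnnnnn, a fixed delimiter of 5 nt followed by 15 random nucleotides. The last U of a member is thus the base next to that delimiter.

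Uridylated tails were a small share of long tails in every replicate. They were 1757 of 108993 long tails in replicate 1 (1.61%, 95% Wilson interval 1.54 to 1.69), 770 of 39136 in replicate 2 (1.97%, 1.83 to 2.11) and 694 of 36092 in replicate 3 (1.92%, 1.79 to 2.07). The mean was 1.83% ± 0.19 (SD, n = 3). Replicate 1 was lowest, and its interval does not overlap those of the other replicates. Intervals here and below cover counting error only. With the 3′RACE-seq mRNAs left out the shares were 1.61%, 2.55% and 2.20%, which widened the gap between replicate 1 and the others. Tails of 10 to 25 As, called short below, were uridylated at 12.3%, 13.7% and 16.0%. Long tails held 10.7%, 6.82% and 5.59% of all uridylated reads of the 3 replicates.

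The limit of 26 As lies at the foot of the decline seen on short tails. At 24 As the uridylated share was 2.41%, 3.27% and 3.61% in replicates 1 to 3, and at 25 As it was 2.38%, 3.10% and 3.46%. Just inside the limit, at 26 As, it was 2.02%, 2.14% and 2.18%, and at 27 As 1.90%, 2.61% and 2.44%. Lengths alternated slightly between odd and even: odd numbers of As made up 47.4%, 44.8% and 44.6% of unmodified tails of 26 to 49 As but 50.7%, 48.5% and 51.3% of uridylated ones. Values for single lengths are therefore less certain than values for steps of several nt.

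Most uridylated long tails carried a single U. In replicate 1, 1639 of 1757 had 1 U, 111 had 2, 6 had 3 and 1 had 4. In replicate 2 these numbers were 721, 45, 3 and 1 of 770, and in replicate 3 they were 644, 44, 5 and 1 of 694. Tails with 2 or more Us were 6.72%, 6.36% and 7.20% of uridylated long tails, a narrow range over the replicates.

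Short tails were extended further. With 2 or more Us they made up 32.8%, 37.7% and 37.9% of uridylated short tails in replicates 1 to 3. The share was lower on long than on short tails in 3 of 3 replicates, a mean difference of −29.4 percentage points (SD 2.88, n = 3; Fisher's exact test, two-sided, p = 5.04e-140, 2.192e-86 and 2.57e-74 for replicates 1 to 3). An exact sign-flip test over the 3 replicates gave p = 0.25, the smallest value it can give with 3. Compared within the same mRNA and replicate, the difference was −25.6 percentage points, and with the 3′RACE-seq mRNAs left out its mean was −26.8. All p-values over reads measure counting error within these libraries and not the spread between plants.

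The decline of longer extensions went on inside the long class. From 26 to 30 As, 13.1%, 10.5% and 11.9% of uridylated tails had 2 or more Us, and from 31 As upward 4.10%, 3.05% and 3.21%. This comparison was added after the data had been seen. The drop of 8.36 ± 0.83 percentage points (SD, n = 3) was seen in 3 of 3 replicates (Fisher's exact test, two-sided, p = 8.88e-11, 3.96e-05 and 1.19e-05), and it was 7.22 with the 3′RACE-seq mRNAs left out. Beyond 50 As 1 of 208 uridylated tails had 2 Us or more, all replicates together. Of the 17 members with 3 or more Us, 15 had between 26 and 31 As.

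**Figure D1:**
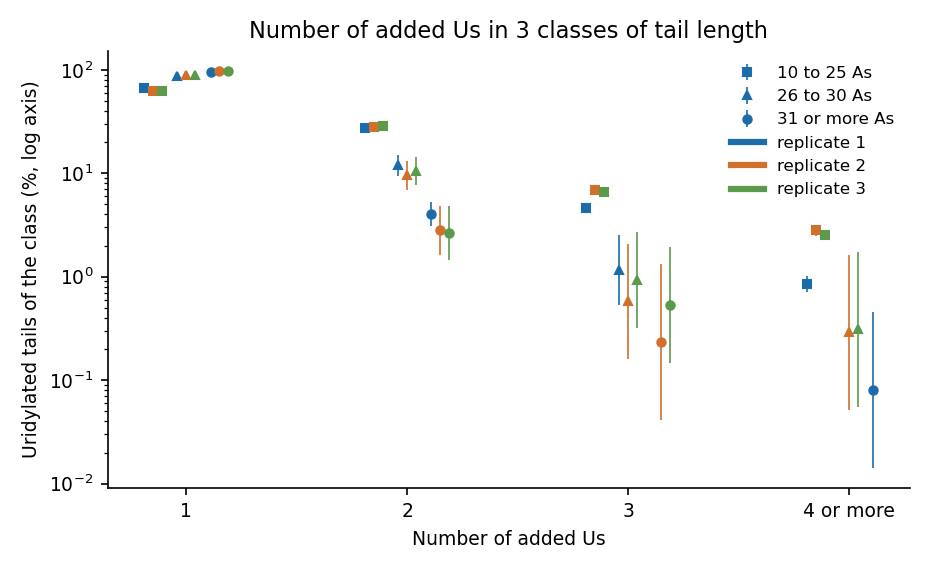
Share of uridylated tails (percent, log axis) with 1, 2, 3 and 4 or more added Us. Squares are tails of 10 to 25 As, triangles 26 to 30 As and circles 31 or more As, colours are the 3 replicates, bars are 95% Wilson intervals, and classes with no read are not drawn. At 2 Us the order from short to long tails is the same in each replicate.

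The longest runs of As behind 3 or more Us illustrate how few such reads there were. They came from PUX3 (AT4G22150), a protein with a UBX domain, with 46 As and 3 Us in replicate 3, from CRD1 (AT3G56940), an enzyme of chlorophyll synthesis, with 34 As and 3 Us in replicate 2, and from PGY2 (AT1G33140), a ribosomal protein, with 31 As and 3 Us in replicate 3. AT4G32790, annotated as an exostosin family protein, gave 31 As and 4 Us in replicate 1. The other members with 4 Us were both at 26 As, from CRD1 in replicate 2 and from AT2G43386, an uncharacterised protein, in replicate 3. CRD1 alone gave 5 of the 17.

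Single-U tails and longer extensions followed different courses along the tail. The share of tails with 1 U was 8.90% ± 0.91 for short tails, 1.87% ± 0.17 at 26 to 27 As and 1.69% ± 0.23 at 28 to 30 As (mean and SD, n = 3). It was still 1.67% ± 0.16 over all tails of 31 or more As. The share with 2 or more Us was 5.08% ± 1.02 for short tails, 0.327% ± 0.045 at 26 to 27 As, 0.157% ± 0.034 at 28 to 30 As and 0.0591% ± 0.0040 from 31 As upward. Within the long class the single-U share was thus nearly level to about 40 As, while the share with more Us kept falling.

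**Figure D2:**
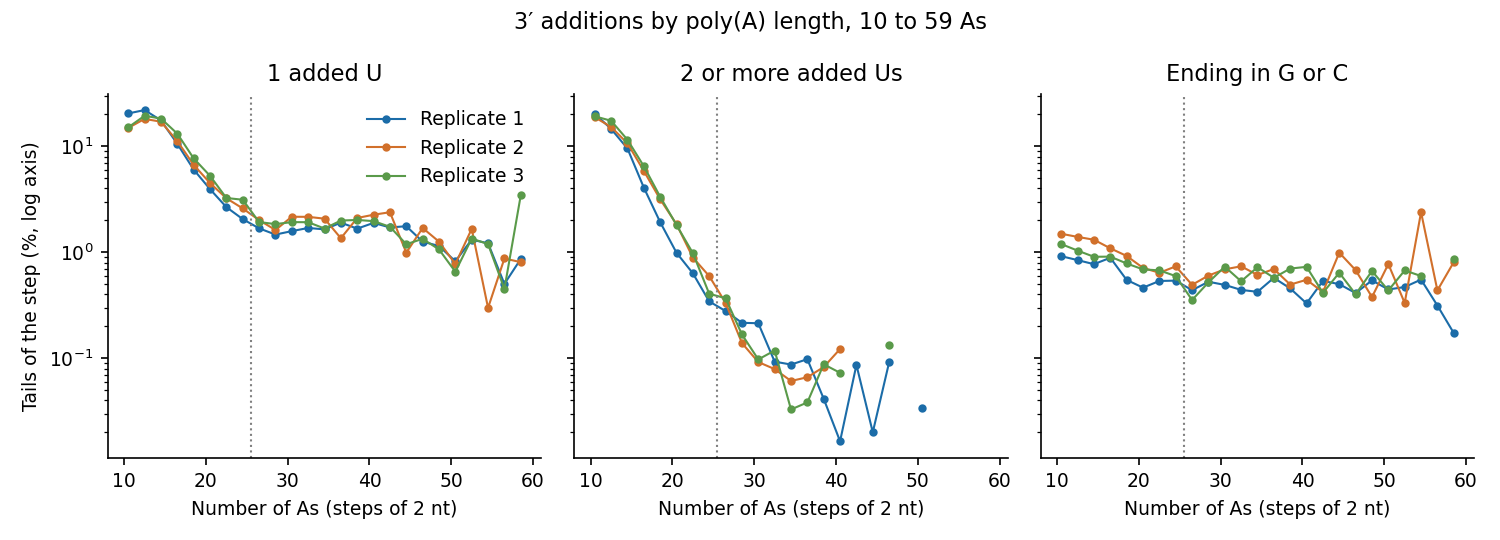
Tails with 1 added U, with 2 or more added Us, and ending in G or C, as percent of all tails in steps of 2 nt from 10 to 59 As (log axis), per replicate. The dotted line marks the limit of 26 As, steps with no such tail are not drawn, and steps beyond 50 As rest on few reads; the single-U curve flattens past the line while the curve for 2 or more Us keeps falling.

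Uridylated long tails were shorter than unmodified long tails. Medians for uridylated and unmodified tails were 35 and 37 As in replicate 1, and 31 and 32 As in both replicate 2 and replicate 3. Tails over 40 As were 30.6%, 14.5% and 12.4% of uridylated long tails and 38.0%, 18.98% and 19.3% of unmodified ones. The difference was −7.40, −4.43 and −6.89 percentage points, with a mean of −6.24 (SD 1.59, n = 3; Fisher's exact test, two-sided, p = 1.46e-10, 0.00155 and 2.10e-06). Over the replicates together the odds ratio was 0.70 (95% interval 0.64 to 0.76; exact Cochran-Mantel-Haenszel test with replicates as strata, p = 2.27e-17), and the exact sign-flip test again gave its smallest p of 0.25. The difference within the same mRNA and replicate was −6.14 percentage points. With the 3′RACE-seq mRNAs left out it was −7.34, −2.10 and −6.25 in replicates 1 to 3, which lowered mainly the value of replicate 2. Tails ending in G or C had medians of 37, 33 and 33 As, so that they were no shorter than the unmodified tails by this measure.

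**Figure D3:**
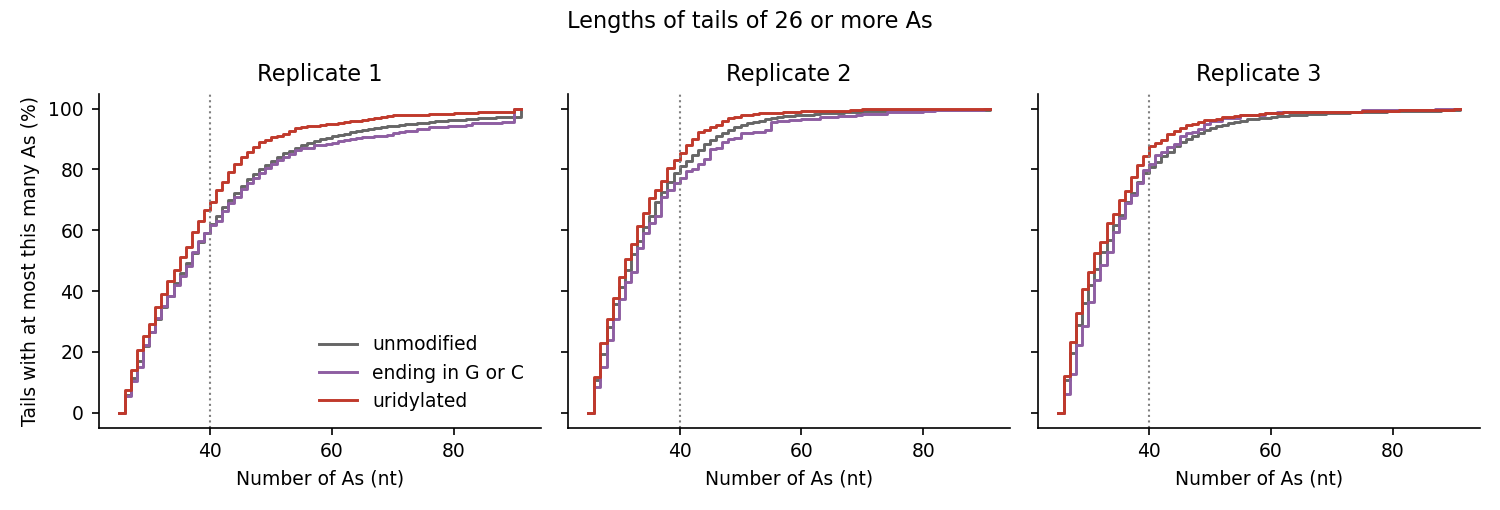
Cumulative share (percent) of tails with at most a given number of As, for unmodified, G- or C-ending and uridylated tails of 26 or more As in each replicate. The dotted line marks 40 As, where the uridylated curve lies above the unmodified one in every replicate, at 30.6% against 38.0% still longer in replicate 1.

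In steps of length, the uridylated share kept near its level up to 40 As and was lower from 41 to 60 As. It was 1.77%, 2.13% and 2.12% at 26 to 30 As, 1.84%, 2.15% and 1.97% at 31 to 35 As and 1.80%, 1.82% and 2.167% at 36 to 40 As. At 41 to 50 As it was 1.63%, 1.77% and 1.30%, and at 51 to 60 As 0.918%, 0.809% and 1.22%. Between 26 to 30 As and 51 to 90 As the share fell by 0.954 percentage points on average (SD 0.275, n = 3), an odds ratio of 1.77 for the shorter tails (95% interval 1.52 to 2.06; exact Cochran-Mantel-Haenszel test, p = 1.84e-14). The direction was the same in 3 of 3 replicates. The mean was 0.866 percentage points with the 3′RACE-seq mRNAs left out and 1.502 when added nucleotides counted towards the length. The longest tails have a limit of their own, since A stretch and addition together could fill at most 91 nt: a tail of 91 As had no room for a U. The longest members had 90 As and 1 U and filled the read, 19 of them in replicate 1, 0 in replicate 2 and 2 in replicate 3. One of them came from PSBW (AT2G30570), a small subunit of photosystem II. These 21 reads lay in the step of 81 to 90 As, where the share was 2.15% of 1256 tails in replicate 1, 0 of 77 in replicate 2, which allows a share of up to 3.90%, and 4.55% of 110 in replicate 3. Tails ending in G or C were also more frequent in that step, at 2.31%, 2.60% and 0.909%. All replicates together, it held 32 uridylated tails and 32 ending in G or C. Of the 2824, 104 and 191 tails that filled the read in replicates 1 to 3, 23, 1 and 0 ended in G or C. Unmodified tails that filled the read had 91 As and lay outside this step, so its shares cannot be compared with those of shorter steps. The class of 51 to 90 As holds the same reads with additions and also leaves out tails of 91 As.

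Tails ending in G or C give the level of other 3′ additions measured in the same way. On long tails they were 0.478%, 0.631% and 0.546% in replicates 1 to 3, and on short tails 0.648%, 0.960% and 0.815%. Between short and long tails their share changed far less than that of U. There were 3.37, 3.12 and 3.52 U-ending tails for each G- or C-ending long tail, against 18.95, 14.2 and 19.6 among short tails. The odds of U over G or C were lower on long tails by an odds ratio of 0.189 (95% interval 0.173 to 0.206; Fisher's exact test, two-sided, p = 1.02e-146, 1.17e-62 and 4.20e-63 for replicates 1 to 3), and of 0.198 with the 3′RACE-seq mRNAs left out. From 51 to 90 As the ratio was 1.77, 0.850 and 3.12, so that in replicate 2 U was no more frequent there than G or C, from 17 and 20 reads. Additions of more than 1 G or C were rare: 2 of 965 long tails had 2 nt and none had more, whereas 217 of 3221 uridylated long tails had 2 or more Us. C was the more frequent of the other bases, on 0.311%, 0.475% and 0.402% of long tails, against 0.167%, 0.156% and 0.144% for G.

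Uridylated long tails were spread over many mRNAs. A few reads that fit more than 1 gene count for each, which gave 3301 pairs of read and gene over 2095 mRNAs. Of these mRNAs 1561 had a single uridylated long tail and 57 had 5 or more. The 10 mRNAs with most of them held 8.12% of the pairs. Among the 1606 mRNAs with at least 20 long tails the median uridylated share was 0.551% (quartiles 0 and 2.65%), and 777 of them had no uridylated long tail. With 20 long tails, a count of 0 allows a share of up to 15%, so that most of these zeros say little about a single mRNA.

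Each of the 1606 mRNAs was compared with all others by an exact Cochran-Mantel-Haenszel test with replicates as strata, and p-values were adjusted over all of them by the Benjamini-Hochberg method. At an adjusted p under 0.05, 3 mRNAs lay above the rest (0.187% of those tested) and 3 below (0.187%). At an unadjusted p under 0.05 in this test there were 54 above and 18 below of the 1606, counts made before correction. The median mRNA had 39 long tails, too few for a share below the rest to reach that value. Of the 6, 2 of those above and all 3 below belong to the 22 mRNAs followed by 3′RACE-seq, which the study had picked to span levels of uridylation. The reads of CRD1 and RCI2A came almost wholly from replicates 2 and 3, where this set was in excess. Without these mRNAs the same test called 0 above and 2 below of 1586 tested (AT1G64400, a long-chain acyl-CoA synthetase, and AT5G24780, a vegetative storage protein). By a chi-square form of the test 15 of the 1606 mRNAs lay above and 3 below.

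AT4G28240, annotated as a wound-responsive family protein (TAIR10.1, chromosome 4, 13997292 to 13998604), had the highest share of the 6 called mRNAs. Uridylated were 2 of its 13 long tails in replicate 1, 2 of 4 in replicate 2 and 3 of 8 in replicate 3, together 7 of 25 or 28% (95% Wilson interval 14.3 to 47.6). All 3 replicates lay far above the share of all long tails, at low depth. The odds ratio was 21.9 (95% interval 9.10 to 52.7, exact test, adjusted p = 0.000108). Its short tails were uridylated at 67.4% (58 of 86).

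AT5G61590 encodes DEWAX, a transcription factor of the AP2/ERF family that represses wax synthesis (chromosome 5, 24764256 to 24765511). Uridylated were 3 of 15 long tails in replicate 1, 4 of 18 in replicate 2 and 2 of 22 in replicate 3, together 16.4% (interval 8.86 to 28.3). The odds ratio was 10.3 (interval 5.05 to 21.1, exact test, adjusted p = 0.000313), and the adjusted p was 0.117 without replicate 2. Its short tails were uridylated at 38.4%.

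RCA (AT2G39730), Rubisco activase, which keeps the carbon-fixing enzyme active (chromosome 2, 16570746 to 16573692), was the deepest of the mRNAs above. Its uridylated long tails numbered 24 of 779 (3.08%), 5 of 100 (5%) and 6 of 150 (4%) in replicates 1 to 3, each above the replicate's overall share. The odds ratio was 2.05 (interval 1.46 to 2.88, exact test, adjusted p = 0.0380). The call was lost without any one replicate, with an adjusted p of 0.504 without replicate 1, 0.140 without replicate 2 and 0.143 without replicate 3, while the odds ratio was 2.32, 1.98 and 2.04. With the 3′RACE-seq mRNAs left out it was 1.94, with an adjusted p of 0.133 by the exact test. Its short tails were uridylated at 22.1%, and 7 of its 35 uridylated long tails carried 2 or more Us.

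RCI2A (AT3G05880), a small membrane protein induced by cold and salt (chromosome 3, 1755497 to 1756924), had the lowest share of the 6 called mRNAs. Its uridylated long tails were 0 of 22 in replicate 1, 3 of 1761 in replicate 2 (0.170%) and 5 of 1997 in replicate 3 (0.25%). Replicates 2 and 3 gave nearly all of its reads and agreed closely. The odds ratio was 0.102 (interval 0.051 to 0.204, exact test, adjusted p = 1.05e-19). Its short tails were also little uridylated, at 1.07% of 12579.

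ERD15 (AT2G41430), a protein induced early by dehydration (chromosome 2, 17269158 to 17270542), had few uridylated long tails in every replicate. Its counts were 1 of 222, 2 of 469 and 1 of 550 in replicates 1 to 3, together 0.322% (odds ratio 0.167, interval 0.063 to 0.446, exact test, adjusted p = 0.000490). Without replicate 2 the adjusted p was 0.0559 and without replicate 3 it was 0.304. Its short tails were uridylated at 14.2%, a level 44.1 times that of its long tails and close to that of all short tails.

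CRD1 (AT3G56940), which catalyses a step of chlorophyll synthesis (chromosome 3, 21076505 to 21078443), gave more members than any other mRNA. Its uridylated long tails were 3 of 151 (1.99%), 64 of 8043 (0.796%) and 51 of 3901 (1.31%) in replicates 1 to 3. Replicates 2 and 3 lay below the overall share and replicate 1 above it. The odds ratio was 0.452 (interval 0.375 to 0.546, exact test, adjusted p = 3.39e-17), and without replicate 2 the adjusted p was 0.426. Short CRD1 tails were uridylated at 19.1%, or 19.6 times more often. Its extensions were long in both classes: 28 of its 118 uridylated long tails had 2 or more Us (23.7%), and 65.7% of its uridylated short tails did.

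The other mRNAs with many members did not pass the test. PUX3 had 15 of 1170, 5 of 464 and 7 of 564 long tails uridylated (1.23% in all, exact test, adjusted p = 0.992). It stood out by its tails instead, since 98.3% of its tails were long and its unmodified long tails had a median of 50 As. LHCA1 (AT3G54890) and LHCA4 (AT3G47470), antenna proteins of photosystem I, had 18 of 578 and 16 of 661 (3.11% and 2.42%). MLP423 (AT1G24020), a protein like the major latex protein, had 12 of 626, and LHCB5 (AT4G10340), an antenna protein of photosystem II, 11 of 621. AT1G24160, annotated as triadin, had 11 of 1234 (0.891%, exact test, adjusted p = 0.342) beside 19.5% on short tails. It is among the 3′RACE-seq mRNAs, and its long tails numbered 5, 740 and 489 in replicates 1 to 3. PUX3 is on that list too, as are PSBW and PRP4. PSBW, which the study named for its contrast with AT4G28240, had 3 of 237, 0 of 32 and 0 of 27. PRP4 (AT4G38770), a proline-rich cell wall protein, had 1 of 11. The mRNAs of the uridylyltransferases themselves were almost absent, with 0 of 2 long tails for URT1 (AT2G45620) and 0 of 1 for HESO1 (AT2G39740).

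In the 3′RACE-seq mRNAs the long tails were uridylated less than the short tails of the same mRNA in every case with enough reads. Of the 22, 19 had at least 20 tails of each class, and 19 of 19 had the lower share on long tails. Their shares ran from 0 to 28% on long tails and from 1.07% to 67.4% on short tails, with medians of 1.43% and 14.2%. Members of the list carried 2 or more Us in 34 of 228 pairs of read and gene (14.9%), of which CRD1 gave 28, against 6.10% of 2999 uridylated long reads of other mRNAs. Over all mRNAs with at least 20 tails in each class, the short tails had the higher share in 1349 of 1429, the long tails in 45, and 35 were equal.

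mRNAs whose short tails were often uridylated also had more uridylated long tails. Across 1429 mRNAs Spearman's rho between both shares was 0.20, and within replicates 1 to 3 it was 0.13, 0.29 and 0.23 over 897, 210 and 254 mRNAs. The points share libraries and differ in depth, and many long-tail shares rest on 0 or 1 read. The shares come from different reads of the same mRNA.

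Grouping mRNAs before counting lessens that noise, but it pools reads, so that a deep mRNA can set the value of its group. The groups were formed by the uridylated share of each mRNA's short tails over the 3 replicates, after the data had been seen. Where this share was at most 5%, long tails were uridylated at 0.912%, 0.763% and 0.833% in replicates 1 to 3. From 5 to 10% the values were 0.996%, 1.37% and 1.49%, and from 10 to 20% they were 1.47%, 1.37% and 1.62%. From 20 to 40% they were 2.48%, 4.76% and 3.76%. Over 40% they reached 4.98% (41 of 823), 11.5% (29 of 252) and 7.07% (13 of 184). CRD1 alone gave 8043 of the 14987 long tails of the group of 10 to 20% in replicate 2. The intervals of the lowest and the highest group did not overlap in any replicate, while those of 5 to 10% and 10 to 20% overlapped in replicates 2 and 3 and were apart in replicate 1. With the 3′RACE-seq mRNAs left out the values for 5 to 10% were 0.984%, 1.41% and 1.496%, and those for 10 to 20% were 1.49%, 2.42% and 2.03%, with intervals apart in replicates 1 and 2. The group over 40% was then at 4.81%, 10.9% and 5.68%.

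mRNAs over 20% had 3.34 percentage points more uridylated long tails than those at most 5% (SD 1.53, n = 3), in 3 of 3 replicates, with an odds ratio of 4.12 (95% interval 3.53 to 4.81; Fisher's exact test, two-sided, p = 1.46e-26, 1.80e-35 and 6.40e-20). Reads are the units here, so neither the p-values nor the interval cover the spread between mRNAs. Without replicate 2 the difference was 1.48 percentage points, and with the 3′RACE-seq mRNAs left out it was 3.05. When each replicate's groups were formed from the short tails of the other replicates it was 1.53 percentage points, or 2.47 with the 3′RACE-seq mRNAs also left out. CRD1, at 22.1% on short tails in replicate 3, moved over 20% without replicate 2, and also where replicate 2 was grouped by the others. With this regrouping, 1.22% of 10002 long tails of replicate 2 were uridylated at 20 to 40%, below the 2.06% at 10 to 20%. G or C at the end of long tails was at 0.453% ± 0.096 in the lowest group and 0.759% ± 0.659 in the highest (mean and SD, n = 3). The highest value rests on 0 of 823, 3 of 252 and 2 of 184 long tails in replicates 1 to 3, too few to show a moderate change. Median lengths were alike, at 37 and 36 As in replicate 1 for the lowest and the highest group, 31 and 31 in replicate 2, and 32 and 31 in replicate 3. mRNAs with under 20 short tails could not be grouped, and their long tails were uridylated at 2.37%, 4.004% and 3.27%.

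**Figure D4:**
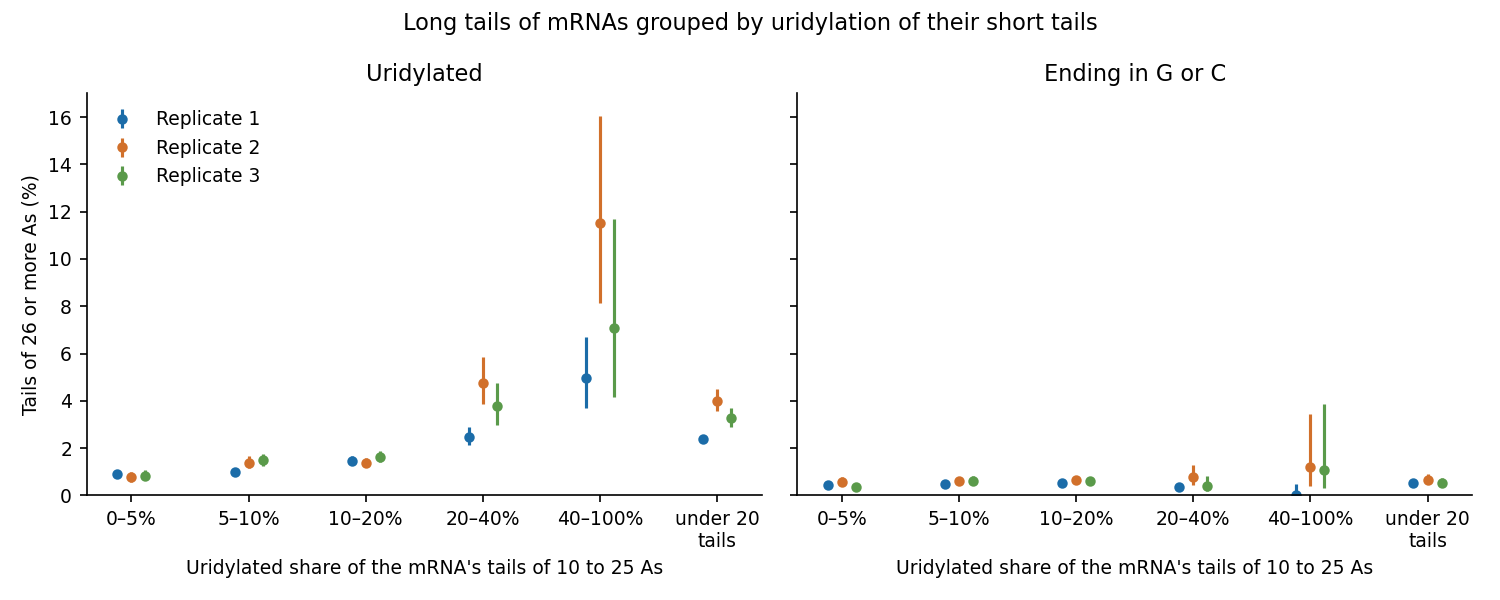
Uridylated tails (left) and tails ending in G or C (right) as percent of long tails, for mRNAs grouped by the uridylated share of their short tails, per replicate with 95% Wilson intervals. Uridylation is below 1% in the lowest group and 4.98% to 11.5% in the highest, while G or C stays near 0.5% apart from the highest group, where intervals are wide.

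**Figure D5:**
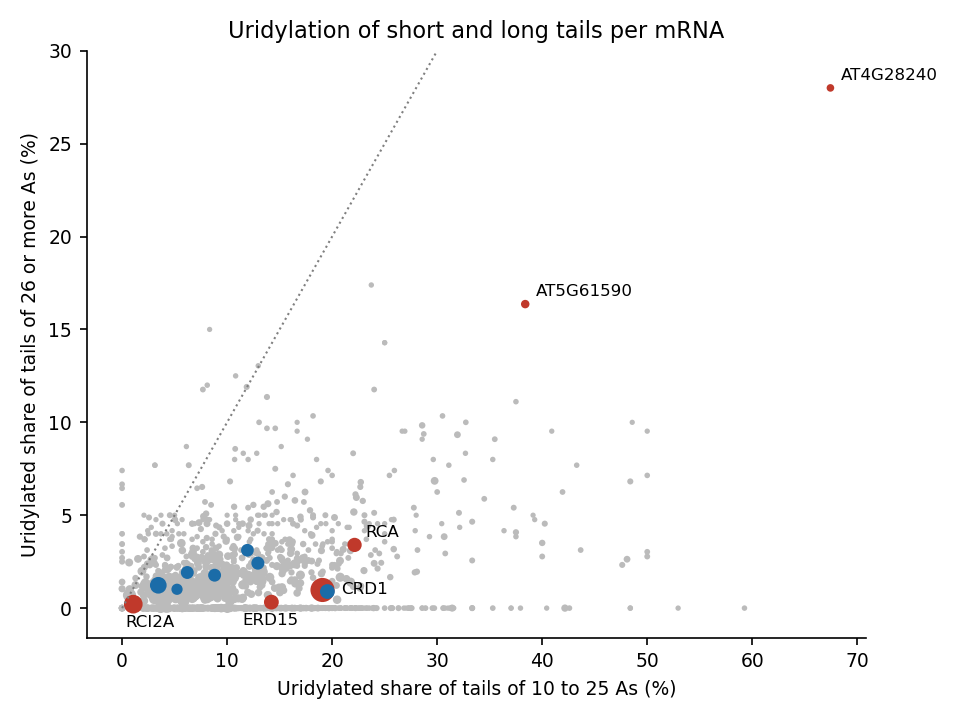
Uridylated share of tails of 10 to 25 As (x, percent) and of 26 or more As (y, percent) for 1429 mRNAs with at least 20 tails in each class, all replicates together. Point area grows with the number of long tails, red points are the 6 mRNAs past the test, blue points other mRNAs named in the text, and the dotted line marks equal shares; most points lie below it.

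Groups of mRNAs by function, taken from words in their RefSeq product names or from lists of loci, are given as description. Among 175 tested mRNAs for ribosomal proteins, the building blocks of the translation machinery, the median share was 0.346%, against 0.551% over all 1606 tested, and 0 lay above and 0 below by the test, beside 0.187% of all tested in each direction. Together their long tails were uridylated at 0.873%, 0.979% and 1.10% in replicates 1 to 3, lower than the share of all long tails in each. Their short tails were at 7.63%, against 13.3% for the short tails of all mRNAs with a long tail. mRNAs for transcription factors went the other way: 17 were tested, with a median of 2.63% and 1 above, AT5G61590, beside the same 0.187% over all. Their long tails were uridylated at 3.34%, 5.76% and 3.70% and their short tails at 25.6%. Of 419 such mRNAs with long tails only these 17 had enough to be tested. Long tails of mRNAs with under 20 short tails lay above the share of all long tails too, at 2.37%, 4.004% and 3.27%.

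mRNAs for photosystem and antenna proteins and the Rubisco small subunit, which are abundant transcripts of green tissue, had a median of 1.30%, above that of all tested. Of 41 tested 0 passed in either direction, with values of 1.29%, 2.02% and 1.78% for all long tails of the list. Long tails of all mRNAs were at 1.61%, 1.97% and 1.92%, so that the list lay lower in replicates 1 and 3. In replicate 2 it lay slightly higher. Its short tails were at 9.63%, against 13.3% for the short tails of all mRNAs with a long tail. Heat shock proteins and chaperones, which help proteins fold, had 27 uridylated of 1678 long tails (1.61%, 24 tested, 0 passed), although their short tails reached 18.4%. Lipid transfer proteins had 21 of 1910 (1.10%, 18 tested, 0 passed), and mRNAs of the pollen coat and tapetum, the tissue that feeds the pollen, 14 of 1068 (1.31%, 9 tested, 0 passed). The factors of mRNA decay and tailing gave 6 of 93 long tails (6.45%, interval 2.99 to 13.4), with 2 tested and 0 passed. Beside each of these counts, 0.187% of all tested mRNAs passed in each direction. The poly(A)-binding proteins gave 0 of 34, which allows a share of up to 8.82%, and none reached 20 long tails.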

How the data were processed

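The deposited table lists, for each TAIL-seq read pair, the gene, the length of the poly(A) stretch and the sequence of the added 3′ nucleotides as the authors' pipeline called them, a unit other than counts or normalized expression. The authors removed duplicates by the random 15-nt tag, mapped read 1 with HISAT2 (2.1.0 in the submitters' processing notes) to TAIR10, assigned genes with bedtools (2.17.5 there) and kept tails over 5 nt. Of 455742 rows, 172 repeats of read and gene were dropped, which left 442916 reads. The second read is the complement, so a recorded A is an added U. Reads were counted once, and once per gene in comparisons of mRNAs, which needed 20 long tails. Genes were named from RefSeq (TAIR10.1), where 16496 of 16577 loci matched. Intervals are 95% Wilson intervals, and the limit given for a count of 0 is the share that 3 counts would make. Fisher's, Cochran-Mantel-Haenszel and sign-flip tests were run in Python 3.11.15 with scipy 1.17.1. Only the exact test per mRNA was checked on simulated counts. Members, lists and tests were chosen with earlier results of these data known. The mRNAs named were the 8 with most uridylated long tails, up to 10 highest and 6 lowest of those past the test, 5 that bear on the study, and those of the longest extension or tail, of which 1 is named for the longest tail. AT1G64400, AT5G24780 and the mRNAs of 3 or more Us were named after their values were seen.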

Additional observations from a re-analysis of the deposited data

How the results depend on the processing

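The mean uridylated share of long tails, 1.83%, was 1.77% to 1.95% without single replicates, 2.12% without the 3′RACE-seq mRNAs, 1.35% for tails of at least 41 As, 2.171% when added nucleotides counted towards the length, 1.47% with equal weight for each mRNA and 0.124% for tails with at least 2 Us. The differences in length, number of Us and U against G or C, and the comparisons of mRNA groups and of 26 to 30 with 31 or more As, both added after seeing the data, kept direction and side of the threshold under each alternative tried. Leaving out single replicates gave −7.14 to −5.66 percentage points for the share over 40 As, 0.804 to 1.07 for 26 to 30 against 51 to 90 As, −31.0 to −28.4 for 2 or more Us on long against short tails, 8.04 to 8.83 for 2 or more Us at 26 to 30 against 31 or more As, an odds ratio of 0.178 to 0.201 for U against G or C, and 1.48 to 4.01 percentage points for the mRNA groups. Spearman's rho over mRNAs, 0.20, was 0.16 to 0.24 without single replicates, 0.072 for at least 2 Us, 0.086 for at least 41 As and 0.31 with at least 50 reads, and Pearson's r was 0.33.

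The 3 mRNAs above and 3 below became 1 to 2 above and 1 to 4 below without single replicates, with 533 to 1362 tested. There were 0 above without the 3′RACE-seq mRNAs (1586 tested) and 0 above and 0 below for at least 2 Us (1606 tested). For at least 41 As there were 0 above and 1 below (511 tested). The number tested changed with the minimum of long tails, so these counts cannot be compared directly. With a minimum of 10, 7 of 3039 tested lay above and 3 below. With 50 there were 5 above and 5 below of 626, and with 100 there were 2 above and 8 below of 291. The chi-square test gave 15 above of the 1606 tested, and 12 when corrected for overdispersion. For at least 2 Us the odds ratio of CRD1 turned to 2.04, and those of LHCA1, LHCB5 and MLP423 to 0. LHCB5 ranged from 0.727 to 1.18 without single replicates and was at 0.911 without the 3′RACE-seq mRNAs, 0.930 for at least 41 As and 0.993 with length steps as strata. MLP423 ranged from 0.818 to 1.53 without single replicates and was at 0.979 without the 3′RACE-seq mRNAs, 0.692 for at least 31 As and 0 for at least 41 As. PSBW was at 1.10 for at least 31 As and 1.13 for at least 41 As. None of LHCA1, LHCB5, MLP423 and PSBW passed the test. The cause of these changes was not tested.

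Depth limits the account of single mRNAs, where most of the 1606 tested had fewer than 100 long tails (291 had more or as many). Samples could not be paired between groups because the 3 libraries form a single group. Classes of tails were compared within each replicate, and the sign-flip test used those differences.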
